A study of Mus musculus with 15 samples.

Results

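Etv1, Tshz2, Fn1 and Nts, 4 genes known as markers of the subiculum, were followed in hippocampal RNA of 15 aged female mice. The subiculum is the main output field of the hippocampal formation and receives its strongest input from CA1. The 4 genes were picked because subicular markers had stood higher in Tg2576 mice given DHA in earlier results of these same data. They are 4 of the 55401 genes in the deposited counts, and all 4 passed the filter on low counts that left 19536 genes. Because that choice used the Tg2576 DHA mice, every difference of the 4 genes that involves those mice or their Tg2576 controls is given below as a description with no p. Tests of the 4 genes compared WT mice only. The main models took their estimate of spread from all 15 mice. Their SEs, intervals and p therefore draw partly on Tg2576 mice, whereas the exact permutation tests used WT mice alone.

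Tg2576 mice carry human APP with the Swedish mutation under a prion promoter and develop amyloid pathology with age, and WT mice were their negative littermates. The mice were 18 to 20 months old and received DHA (docosahexaenoic acid, an omega-3 fatty acid) at 450 mg/kg, or its sesame oil vehicle, for 5 weeks. Of the WT mice, 4 received vehicle and 4 received DHA, and of the Tg2576 mice, 4 received vehicle and 3 received DHA, each a separate animal and 1 library. All groups shared age, sex and tissue.

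The 4 genes have different jobs. Etv1 encodes an ETS transcription factor of the PEA3 group and is also known from layer 5 neurons of the neocortex. Tshz2 encodes a zinc finger transcription factor that also marks near-projecting neurons of deep cortex. Fn1 encodes fibronectin, an extracellular matrix protein that is also made by cells of vessels and meninges. Nts encodes the precursor of neurotensin, a secreted neuropeptide. None of them is restricted to the subiculum, and in bulk RNA fewer cells of a type and less RNA per cell cannot be told apart.

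On GRCm38, the annotation of the counts placed Etv1 on the plus strand of chromosome 12 (38779380 to 38870484) with 13296 exonic bases, and Tshz2 on the plus strand of chromosome 2 (169633013 to 170071816) with 7781. Fn1 lay on the minus strand of chromosome 1 (71585520 to 71653200) with 11685 exonic bases. Nts lay on the minus strand of chromosome 10 (102481756 to 102490486) with 1248. Fn1 shared 292 exonic bases with Apol7d on the other strand, and the counting command named no strand, so reads in those bases cannot be assigned to either gene.

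The sequences upstream of Tshz2 and Nts are shown because these genes had the largest differences between Tg2576 DHA and Tg2576 vehicle mice. They come from RefSeq (GRCm38.p6), run up to 250 bases upstream of the transcription start and leave out bases within exons of the annotation. Etv1 also had an entry, which lay inside the gene span used for counting, and Fn1 had none. Both strands were searched for AP-1 (TGANTCA), the core of a CRE (CGTCA), the Sp1 element or GC box (GGGCGG), the TATA element (TATAAA) and the CCAAT box (spelled as named). Capitals mark the matches.
Nts, chr10:102490487-102490668, minus strand: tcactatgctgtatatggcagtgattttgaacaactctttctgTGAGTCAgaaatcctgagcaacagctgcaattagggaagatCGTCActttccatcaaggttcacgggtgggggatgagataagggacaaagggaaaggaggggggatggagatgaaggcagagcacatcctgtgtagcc
Tshz2, chr2:169632259-169632508, plus strand: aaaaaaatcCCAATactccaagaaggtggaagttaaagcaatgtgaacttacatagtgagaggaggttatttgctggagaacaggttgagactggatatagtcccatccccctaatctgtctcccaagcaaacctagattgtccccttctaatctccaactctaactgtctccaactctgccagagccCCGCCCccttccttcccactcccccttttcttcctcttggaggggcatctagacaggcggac

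The 182 bases of Nts held 1 AP-1 match, 207 bases before the RefSeq start, and 1 CRE core at 166 bases. In the same stretch of 32851 mouse promoters these letters occurred in 4.96% and 10.9%. The 250 bases of Tshz2 held a CCAAT box at 241 bases and the Sp1 element on the reverse strand at 62 bases. Those occurred in 33.8% and 32.7% of promoters. The matches do not overlap each other. The Etv1 window held none of the 5 motifs.

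Total counts per mouse ranged from 17372864 to 46596489. Levels are CPM (counts scaled to a common library size, after TMM scaling), and levels of different genes are compared only per kilobase of exon. In WT vehicle mice Tshz2 stood at 8.58 ± 3.43 CPM per kb (mean ± SD, n = 4), Fn1 at 5.38 ± 0.893, Etv1 at 5.3 ± 0.413 and Nts at 3.59 ± 0.7. Between 53.3% (Nts) and 71.9% (Tshz2) of the tested genes had a lower mean on this scale. Tshz2 and Fn1, and Fn1 and Etv1, did not differ beyond their SDs, whereas Etv1 and Nts were further apart than theirs. Nts rested on 62 to 196 reads a mouse, while each of the other genes had at least 832 reads in every mouse.

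The choroid plexus differed widely between libraries before any gene of interest is considered. The summed level of 5 choroid plexus genes (Ttr, Kl, Folr1, Clic6 and Kcnj13), all with reads in every mouse, ranged from 88.4 to 3710 CPM in WT vehicle mice, from 60.2 to 5800 in WT DHA mice and from 140 to 3140 in Tg2576 vehicle mice. All 3 Tg2576 DHA mice were high, at 3080 to 5130 CPM. Beyond correlations over mice, its part in the results below was not tested.

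In WT mice, DHA was followed by no detectable difference in any of the 4 genes. Fitted log2 differences were below 0 for all 4, between -0.35 (Tshz2) and -0.094 (Fn1). None was called at an unadjusted p of 0.01, and none was under 0.05, with the quasi-likelihood test of edgeR, DESeq2 or limma-voom. Over all genes tested, 1.38% were called in this comparison. The median of the 4 genes was -0.21 on the log2 scale, against -0.014 over all genes.

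Etv1 in WT vehicle mice measured 70.4, 70.94, 63.65 and 77.08 CPM. In WT DHA mice it measured 50.49, 78.06, 58.86 and 52.77 CPM. All but 1 WT DHA mouse lay below the WT vehicle range, and that mouse lay above it. The log2 difference was -0.23 (SE 0.16, 95% interval -0.57 to 0.11, adjusted p = 0.879 by edgeR, Benjamini-Hochberg over all genes). An exact two-sided permutation test gave p = 0.2, where the smallest possible with 4 mice against 4 is 0.0286.

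Tshz2 in WT vehicle mice measured 106.6, 54.98, 50.44 and 54.91 CPM. In WT DHA mice it measured 42, 55.07, 72.88 and 40.54 CPM. WT vehicle mouse 1 was about as far above the other vehicle mice as their own level, and the groups overlapped. The log2 difference was -0.35 (SE 0.33, interval -1.07 to 0.38, adjusted p = 0.904, exact permutation p = 0.486). Without WT vehicle mouse 1 it was -0.023, so the size of the difference rested on that animal.

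Fn1 in WT vehicle mice measured 66.76, 75.49, 57.1 and 51.96 CPM. In WT DHA mice it measured 59.16, 76.66, 52.04 and 47.11 CPM, a range that covered that of the vehicle group. The log2 difference was -0.094 (SE 0.21, interval -0.54 to 0.35, adjusted p = 0.962, exact permutation p = 0.657). It changed sign, to 0.0015, without WT vehicle mouse 2.

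Nts in WT vehicle mice measured 4.156, 3.675, 4.392 and 5.716 CPM. In WT DHA mice it measured 2.817, 4.611, 3.207 and 4.989 CPM. The lowest mice of the pair of groups were DHA mice 1 and 3, and the other DHA mice lay inside the vehicle range. The log2 difference was -0.2 (SE 0.26, interval -0.75 to 0.35, adjusted p = 0.929, exact permutation p = 0.371). Non-overlapping groups, in either direction, occurred for 5.02% of all genes in this comparison and for 0 of the 4.

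**Figure D1:**
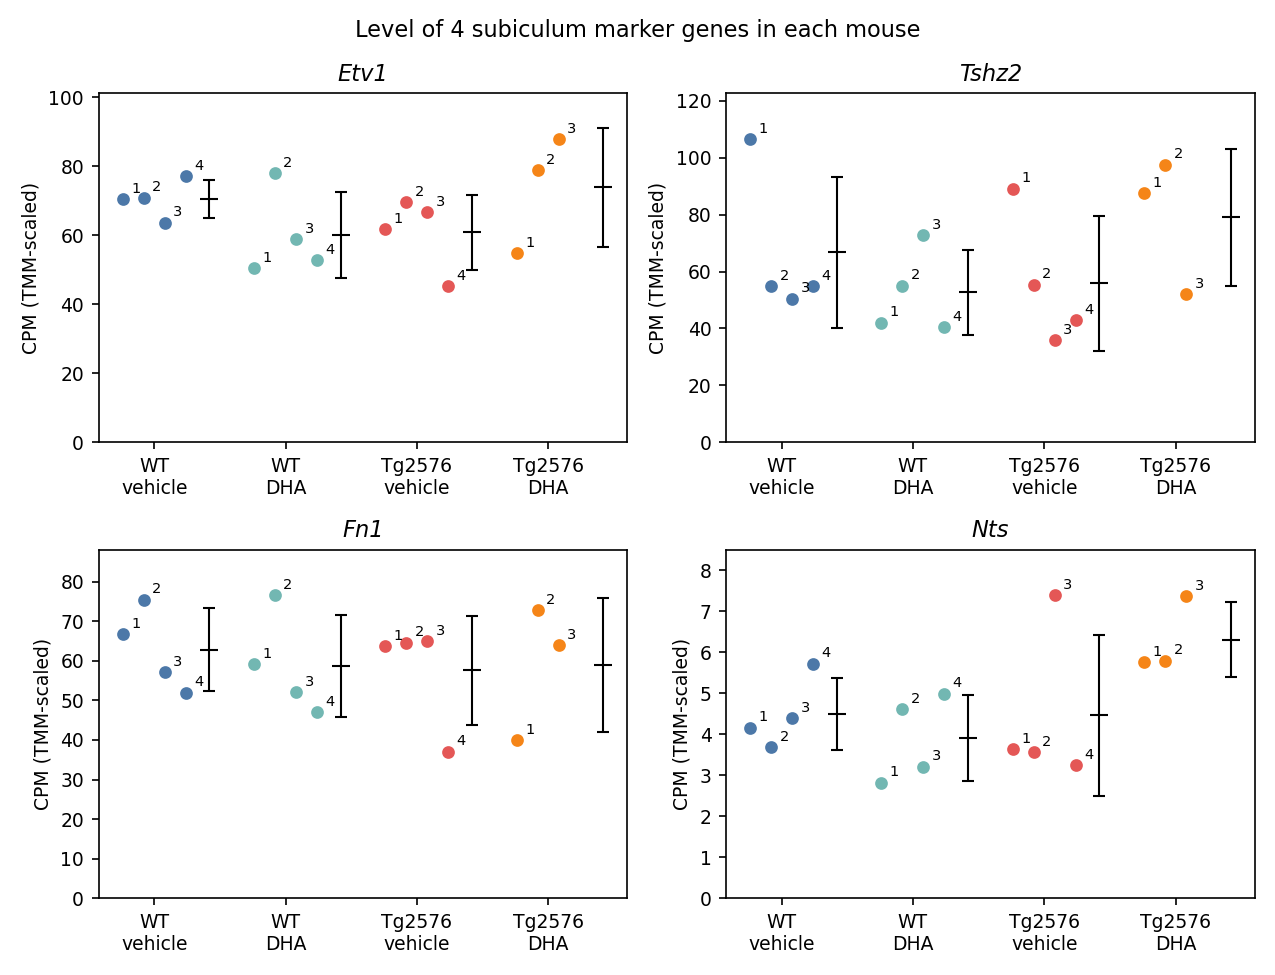
Each panel plots the CPM of 1 gene (vertical axis, from 0) in each of the 15 mice by group. The numbers are replicate numbers and the black bars are mean ± SD. Within the comparisons of the design the groups overlap for every gene, except Nts in Tg2576 DHA (5.759 to 7.357 CPM) against WT DHA (2.817 to 4.989 CPM).

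In Tg2576 mice, the comparison that chose the genes, the differences were small or uneven. Fitted log2 differences of DHA against vehicle were 0.51 for Tshz2 (SE 0.36), 0.5 for Nts (SE 0.28), 0.28 for Etv1 (SE 0.17) and 0.034 for Fn1 (SE 0.23). All 4 were above 0, with a median of 0.39 against -0.0039 over all genes, but the DHA and vehicle mice overlapped for each gene and Fn1 hardly differed. Nothing is read from these values, since they are the ones the genes were chosen on. In this comparison 0.353% of all genes were called, and 1.69% were higher with DHA without overlap.

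Etv1 measured 61.76, 69.71, 66.7 and 45.28 CPM in Tg2576 vehicle mice and 54.74, 78.94 and 87.93 in Tg2576 DHA mice. Both of the latter DHA mice exceeded all vehicle mice, while DHA mouse 1 lay below 3 of them. Tshz2 measured 89.12, 55.39, 35.75 and 42.97 CPM with vehicle and 87.49, 97.61 and 51.92 with DHA. Tg2576 vehicle mouse 1 was as high as the high DHA mice. The log2 difference of Tshz2 was 0.82 without that mouse and 0.33 without Tg2576 DHA mouse 2. That of Etv1 was 0.14 without DHA mouse 3 and 0.46 without DHA mouse 1.

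Fn1 measured 63.75, 64.6, 64.98 and 37.03 CPM in Tg2576 vehicle mice and 39.99, 72.88 and 63.93 in Tg2576 DHA mice. A single low mouse stood in each group. The log2 difference lay between -0.15 and 0.25 when 1 mouse at a time was left out, and between -0.088 and 0.044 under other settings. Nts measured 3.633, 3.555, 7.392 and 3.252 CPM with vehicle and 5.759, 5.792 and 7.357 with DHA. Vehicle mouse 3 was the highest of all 15 mice, and without it the log2 difference was 0.86, whereas without vehicle mouse 4 it was 0.37. The other 3 vehicle mice lay below all 3 DHA mice.

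Between genotypes under vehicle, all 4 genes had fitted values below 0 in Tg2576 mice, at -0.26 for Tshz2, -0.21 for Etv1, -0.13 for Fn1 and -0.012 for Nts. These signs were not firm. Tshz2 turned to 0.06 without WT vehicle mouse 1, and without Tg2576 vehicle mouse 4 Fn1 turned to 0.056, Nts to 0.13 and Etv1 shrank to -0.076. Of 22 alternatives, Nts changed sign in 7 and Fn1 in 2. Of all genes 3.09% were called, and 2.98% were lower in Tg2576 without overlap, as were 0 of the 4. Under DHA the values were 0.69 for Nts (SE 0.28), 0.59 for Tshz2 (SE 0.36), 0.3 for Etv1 (SE 0.17) and 0.0034 for Fn1 (SE 0.23). Leaving out 1 mouse gave 0.15 (Tg2576 DHA mouse 3) to 0.48 (Tg2576 DHA mouse 1) for Etv1 and 0.41 to 0.82 for Tshz2, and Fn1, at -0.18 to 0.22, changed sign in 7 of 22 alternatives. Nts was higher in each of the 3 Tg2576 mice than in each of the 4 WT mice. Under DHA 1.75% of all genes were called and 3.91% were higher in Tg2576 without overlap.

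The interaction (the DHA difference in Tg2576 mice less that in WT mice) was 0.85 for Tshz2 (SE 0.49), 0.7 for Nts (SE 0.38), 0.51 for Etv1 (SE 0.24) and 0.13 for Fn1 (SE 0.31). Without WT vehicle mouse 1 the value of Tshz2 was 0.53, and without Tg2576 vehicle mouse 3 that of Nts was 1.06. Fn1 changed sign in 3 of 21 alternatives, to -0.062 without Tg2576 DHA mouse 2. The Tg2576 arm of the interaction is the one the choice used, and 0.829% of all genes were called for it. These 5 comparisons share groups, so the sign that recurs across them is no separate support.

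**Figure D2:**
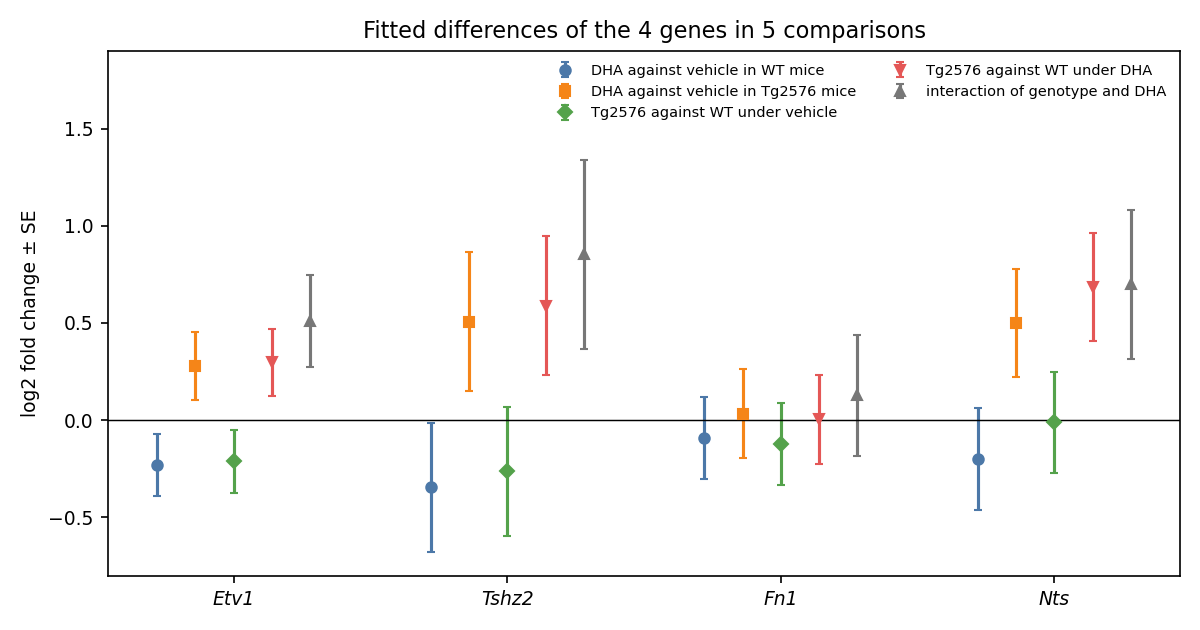
The vertical axis is the fitted log2 fold change with its SE for each of the 4 genes, and symbols mark the 5 comparisons. Values in WT mice lie below 0, values in Tg2576 mice lie above 0 with Fn1 at 0.034, and Tshz2 has the widest error in each comparison.

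Whether the 4 genes moved together from mouse to mouse was examined in the 8 WT mice. Pearson r of log2 CPM ran from -0.18 (Fn1 with Nts) to 0.56 (Etv1 with Fn1) over 6 pairs. Etv1 with Fn1 had rho 0.476, and exact permutation tests gave p = 0.147 for r and p = 0.243 for rho (adjusted p = 0.508 and 0.365). No pair passed an adjusted p of 0.05. Without the 2 mice farthest from the median, Etv1 with Tshz2 changed from 0.44 to -0.2 and Tshz2 with Fn1 from 0.29 to -0.19. Within treatment groups, Etv1 with Fn1 kept an r of 0.54. In the 7 Tg2576 mice its r was 0.86, given as a description.

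Other genes described in subicular neurons were counted in the same way. Of 10 such genes tested, 0 were called with DHA in WT mice and 0 in Tg2576 mice by edgeR, DESeq2 and limma-voom. With 1.38% and 0.353% of all genes called, a list of this size can show no shortfall. At an unadjusted p under 0.05 edgeR had 2 in WT mice and 1 in Tg2576 mice, DESeq2 had 2 and 1, and limma-voom had 2 and 0. Of all 19536 genes, 1157 in WT and 618 in Tg2576 mice were under that limit by edgeR. The 2 in WT mice by edgeR went opposite ways, Glra3 at 0.748 and Cyp26b1 at -0.372. In WT mice 5 values were above 0 and 5 below, with a median of -0.014. In Tg2576 mice 8 were above 0 and 2 below, with a median of 0.091. The summed level was 137 to 167 CPM in WT vehicle, 117 to 168 in WT DHA, 132 to 165 in Tg2576 vehicle and 141 to 153 in Tg2576 DHA mice.

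Between genotypes under vehicle, 4 of the 10 genes had values above 0 and 6 below. Cyp26b1, which degrades retinoic acid, was the single gene of the 10 called there, where 3.09% of all genes were called. It measured 14.04, 15.14, 13.55 and 13.6 CPM in WT and 7.833, 8.209, 11.35 and 7.48 CPM in Tg2576 mice, with no overlap. Of all genes, 2.98% were lower in Tg2576 without overlap. For Cyp26b1 Tg2576 differed from WT by -0.69 on the log2 scale (SE 0.15, adjusted p = 0.145 by edgeR over all genes). The call held under all 21 alternatives. In WT DHA mice Cyp26b1 measured 12.41, 9.936, 8.69 and 12.47 CPM, below all WT vehicle mice. That log2 difference of -0.37 (SE 0.15, adjusted p = 0.791 by edgeR) was not called. Groups without overlap, in either direction, occurred for 5.02% of all genes with DHA in WT mice. Slc17a6, the vesicular glutamate transporter of subicular projection neurons, differed by -0.45 in WT and 0.084 in Tg2576 mice with DHA, and neither passed the test.

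Of 5 genes of near-projecting neurons, the class Tshz2 also marks, Trhr alone was called with DHA in WT mice, where 1.38% of all genes were called. The other 4 genes had values below 0 in WT mice, and the median of the 5 was -0.109. Trhr encodes the receptor for thyrotropin-releasing hormone. It measured 0.8184, 1.934, 1.622 and 1.534 CPM with vehicle and 1.849, 5.845, 4.242 and 2.782 CPM with DHA, so the lowest DHA mouse overlapped the vehicle mice. Its log2 difference was 1.34 (SE 0.33, adjusted p = 0.404 by edgeR). In Tg2576 mice 0 of the 5 were called by edgeR, DESeq2 or limma-voom, with 1, 2 and 2 at an unadjusted p under 0.05, and 4 of 5 were above 0. Over all 19536 genes, the main edgeR fit called 0.353% in Tg2576 mice and had 618 genes under 0.05. In edgeR, 1 of the 5 was called there without the filter on low counts, with only the 2 groups compared and with the replicate block. Trhr measured 2.498, 3.49, 2.836 and 2.114 CPM in Tg2576 vehicle mice and 4.247, 5.881 and 4.956 CPM in Tg2576 DHA mice, without overlap. Of all genes, 1.69% were higher with DHA without overlap in Tg2576 mice. The log2 difference of Trhr there, 0.87 (SE 0.33, adjusted p = 0.999 by edgeR), did not pass the test. Tshz2 itself had a value below 0 in the WT comparison in which Trhr rose.

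**Figure D3:**
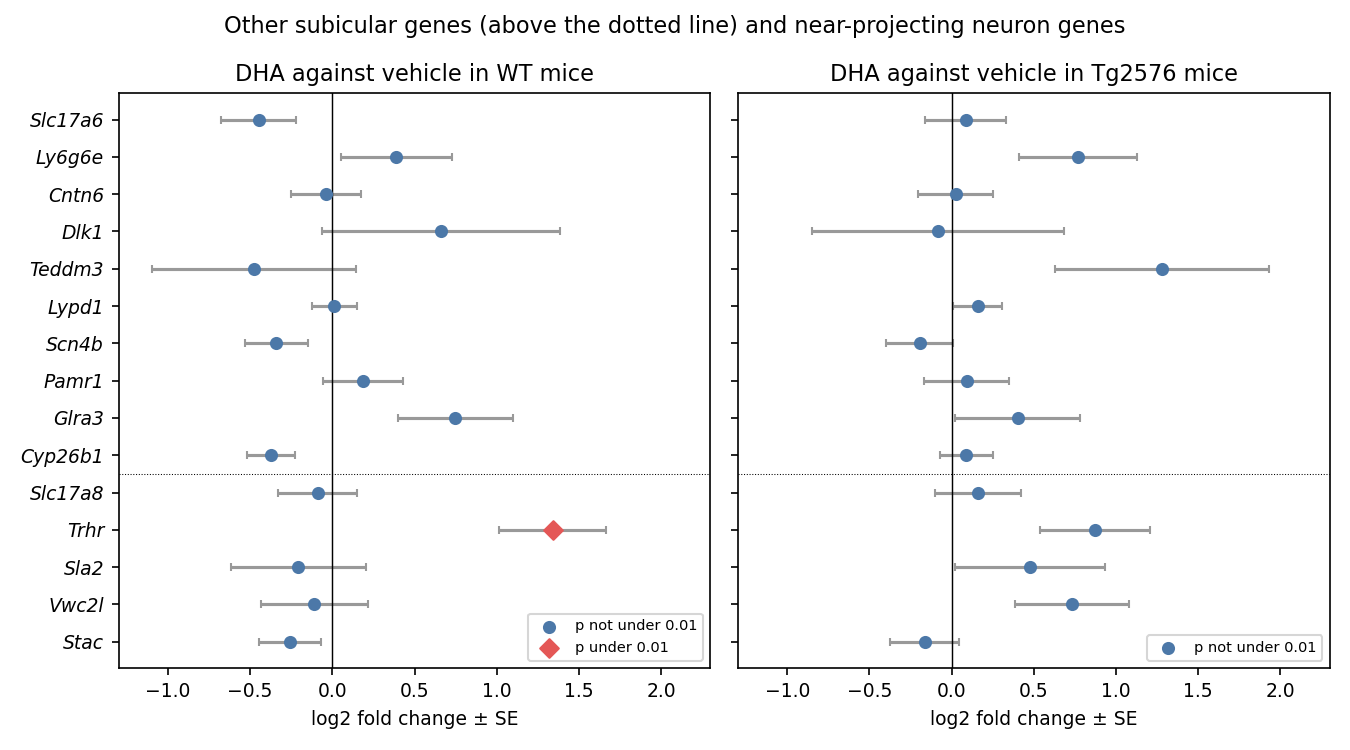
Each row is a gene, the horizontal axis is the log2 fold change of DHA against vehicle with its SE, and the panels are WT (left) and Tg2576 mice (right). The 10 subicular genes scatter on both sides of 0 in WT mice, and Trhr at 1.34 is the only red diamond (unadjusted p under 0.01).

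Partners of the 4 gene products were counted from lists chosen with earlier results of these data known. Over all genes, 1.38% were called with DHA in WT mice. Of 9 neurotensin receptors, processing enzymes and peptidases, 1 was called in WT mice with DHA, the receptor Ntsr1. It measured 8.399, 4.546, 3.818 and 6.138 CPM with vehicle and 10.08, 11.04, 10.14 and 8.731 CPM with DHA, without overlap. DHA and vehicle differed by 0.8 on the log2 scale (SE 0.23, adjusted p = 0.56 by edgeR). The call was lost without WT vehicle mouse 2 or mouse 3. Ntsr1 is also known as a marker of neocortical layer 6. In the same comparison 0 of 9 neocortex layer genes were called, a list too short to show a shortfall. Of 6 layer 6b and claustrum genes, 3 were called higher. Whether cortical tissue had a part in the Ntsr1 difference was not tested.

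Of 6 subunits of integrins that bind fibronectin, Itga5 fell with DHA in WT mice, by 0.65 on the log2 scale (SE 0.21, adjusted p = 0.647 by edgeR). Its levels were 3.209, 3.337, 4.088 and 2.618 CPM with vehicle and 1.761, 2.533, 2.586 and 1.535 CPM with DHA, without overlap. The call was lost under 7 of 21 alternatives. All 6 subunits had values below 0, with a median of -0.27. Of the PEA3 relatives of Etv1 and FGF and ERK feedback genes, 0 of 6 were called in WT or Tg2576 mice, and of the Tshz family, 0 of 2.

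Etv1, Tshz2, Fn1 and Nts were also set beside other measures of each mouse, a choice made after seeing the data. Total counts, the share of reads in genes with at least 5000 exonic bases, and summed levels of the 10 subicular, 5 choroid plexus and 6 endothelial genes gave 20 relations in the 8 WT mice. No relation passed an adjusted p of 0.05.

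The closest was Fn1 with the share of reads in long genes, which ranged from 47.92% to 56.02% over the 15 mice. Pearson r was 0.9 (exact permutation p = 0.00402, adjusted p = 0.0804) and rho was 0.881 (p = 0.00724, adjusted p = 0.107, exact permutation). Within treatment groups r was 0.93, and without the 2 farthest mice it was 0.95. The same r in the 7 Tg2576 mice was 0.78. Fn1 itself is one of the long genes, as are Etv1 and Tshz2. Fits with an offset for gene length put the DHA difference of Fn1 at -0.0094 in WT and -0.041 in Tg2576 mice. Across the planned settings and this offset, the WT difference lay between -0.26 and -0.139 for Etv1. For Tshz2 it lay between -0.352 and -0.256.

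Tshz2 followed the summed level of the 10 other subicular genes with an r of 0.77 in WT mice (exact permutation p = 0.0205, adjusted p = 0.137) and a rho of 0.857 (adjusted p = 0.107, permutation). Without the 2 farthest mice r was 0.88. Etv1 had an r of 0.81 with the same sum (exact permutation p = 0.0178, adjusted p = 0.137) and a rho of 0.667 (adjusted p = 0.415, permutation). In the 7 Tg2576 mice the r with this sum was 0.79 for Tshz2 and 0.17 for Etv1. Tshz2 with the choroid plexus sum had an r of 0.65 (exact permutation p = 0.0741, adjusted p = 0.296), and 0.9 without the 2 farthest mice. WT vehicle mouse 1, the highest for Tshz2, had 166.8 CPM in the subicular sum and 2678 CPM in the choroid plexus sum.

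**Figure D4:**
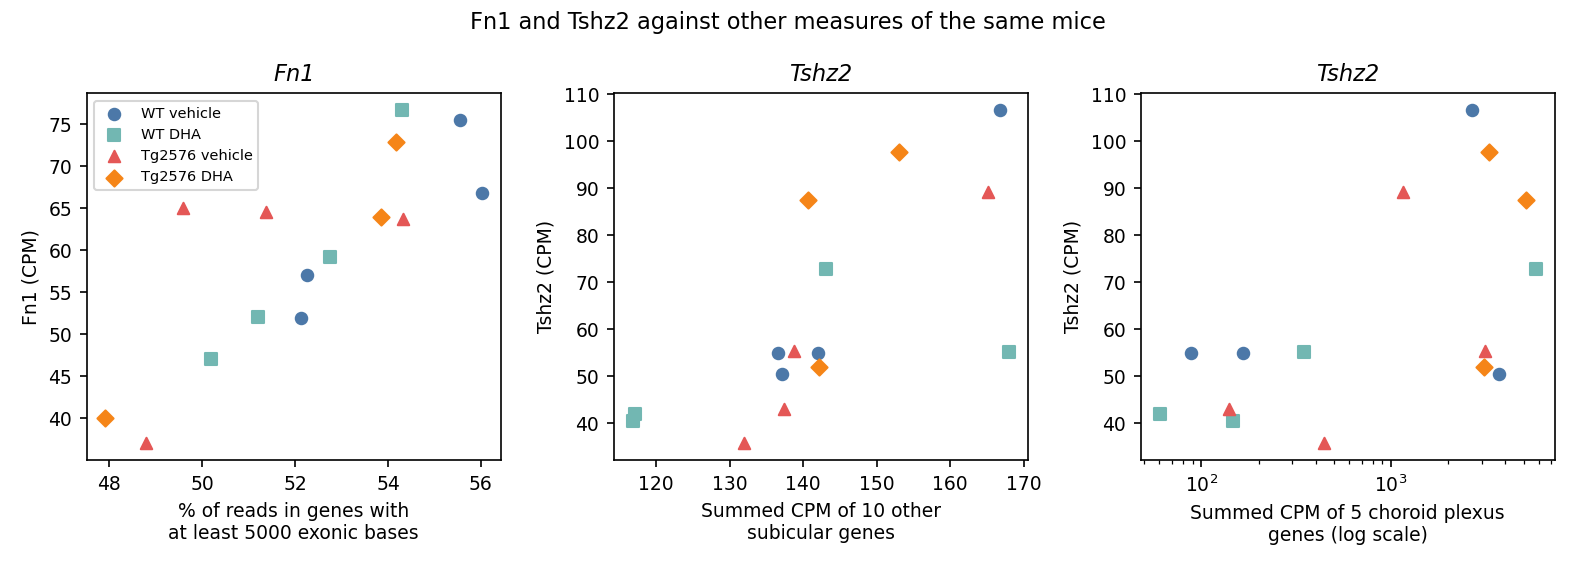
Points are mice, colored and shaped by group, and the vertical axes are CPM of Fn1 (left) and Tshz2 (middle and right). The horizontal axes are the percentage of reads in long genes, the summed CPM of 10 other subicular genes and, on a log scale, the summed CPM of 5 choroid plexus genes. Fn1 rises with the share of long genes in WT mice (r of 0.9).

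The genes whose log2 CPM most resembled each gene over the 15 mice differed from gene to gene. For Etv1 they were Fam210a, St13, Cnr1, Tbc1d32 and Gnai1 (r from 0.922 to 0.889). For Tshz2 they were Rpgr, Vasn, Pm20d1, Tbc1d30 and Syt2 (0.896 to 0.808). For Fn1 they were Ptprg, Cpeb4, Gm44667, Taok1 and Zbtb41 (0.937 to 0.9), and for Nts they included 1700025F24Rik, Rpa1, Bcl2l12 and Gm5424 (0.845 to 0.763). In the 8 WT mice alone r of the genes named here was between 0.484 (Rpa1 with Nts) and 0.957 (1700025F24Rik with Nts). None of the 4 genes was in the first 5 of another. The points share library, depth and group, and 1700025F24Rik, Gm5424, Bcl2l12 and Gm44667 had mean levels under 2 CPM.

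Markers of neighboring fields and other cells, from lists also chosen with earlier results known, gave these counts at an unadjusted p under 0.01. With DHA in WT mice, 3 of 6 layer 6b and claustrum genes and 2 of 6 CA1 genes were higher. In the same comparison 1 of 6 dentate gyrus genes was lower, while 0 of 6 CA3 genes were called. Fitted values were above 0 for 4 and below 0 for 2 of the layer 6b and claustrum genes, and likewise for the CA1 genes. The 2 CA1 genes below 0 were Man1a (-0.36) and Pou3f1 (-0.335). Over all genes, 1.38% were called in WT mice and 0.353% in Tg2576 mice. In Tg2576 mice, 1 of 6 layer 6b and claustrum genes was higher and 1 of 6 thalamic genes was lower, and none of the CA1, CA3 or dentate gyrus genes was called. The layer 6b and claustrum sum was 84 to 99.9 CPM in WT vehicle and 116 to 153 CPM in WT DHA mice, and 66.2 to 117 in Tg2576 vehicle and 111 to 129 in Tg2576 DHA mice. Nr4a2, with the highest mean of the 6 (58.4 CPM over the 15 mice), weighs most in this sum. Gnb4 (-0.168) and Moxd1 (-0.135) were the 2 genes of that list below 0 in WT mice. Of 7 fibroblast and 6 endothelial genes, cells that also make Fn1, 0 were called with DHA in either genotype, and neither were any of 6 striatal or 4 microglial genes. Of the lists in this paragraph, only the endothelial sum was set beside the 4 genes. Fn1 with that sum had an r of 0.694 in the 8 WT mice (exact permutation p = 0.0577, adjusted p = 0.289). In the 7 Tg2576 mice this r was -0.399. Beyond such correlations, the part of these cells in the levels of the 4 genes was not tested.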

How the data were processed

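RNA-seq of hippocampus from 15 mice was used. The deposited values are raw read counts per gene. The authors produced them with featureCounts 1.6.0 from exons of GENCODE M25 (GRCm38), 1 file per mouse. The submitters' processing notes also name FastQC 0.11.8 and STAR 2.6.1c. The paper gives a TruSeq Stranded mRNA kit and the labels a SMARTER kit, and the counting command sets no strand.

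Counts were analyzed with R 4.3.3 and edgeR 4.0.16. filterByExpr (minimum count 10) kept 19536 genes, TMM factors scaled library sizes, and a robust quasi-likelihood model with 1 coefficient per group gave 5 two-sided comparisons. Genes with an unadjusted p under 0.01 were called, as the study did, and Benjamini-Hochberg adjustment ran over all tested genes. Adjusted p-values under 0.05 numbered 0 with DHA in either genotype, where 1157 (WT) and 618 (Tg2576) genes had an unadjusted p under 0.05. Log2 CPM used a prior count of 2. Exact permutation tests served single genes (in R) and correlations (numpy 2.4.6, and scipy 1.17.1 for those without the 2 farthest mice). Gene positions and exon lengths are those in the count files, and upstream sequences come from RefSeq. The workflow was tested on simulated data. A first check, on the share of changed genes that were called, was not met. It was replaced by checks of the recovered effect size and of the rate of false calls.

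The 4 genes and all gene lists were chosen with earlier results of these data known. Named genes are the 4 genes, up to 4 called or abundant genes per list, and the 5 genes with the highest Pearson r to each of the 4, of which 1 is not reported here. Alternatives were DESeq2 1.42.0, limma-voom (limma 3.58.1), no TMM factors, no filter, only the 2 groups compared, a replicate block and leaving out each mouse. An offset for gene length (lowess span 0.3), the measures per mouse, the 5000-base limit and the repeats for list genes and list counts were added after seeing the data. Behavior and protein data were not analysed here.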

Additional observations from a re-analysis of the deposited data

Results flagged for a closer look

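Across 30 checks of a group of 4 mice (the 4 genes and 6 other measures in 3 groups), 5 had a mouse far from the others by Dixon's ratio, where chance gives about 1 in 20. The 6 other measures were chosen after seeing the data. Tshz2 in WT vehicle mice had a high mouse at 107 CPM. Fn1 in Tg2576 vehicle mice had a low mouse at 37 CPM, and Nts in the same group had a high mouse at 7.39 CPM, a different animal. The choroid plexus sum in WT DHA mice had a high mouse at 5800 CPM, and the endothelial sum in that group had a low mouse at 123 CPM, which was the same animal.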

How the results depend on the processing

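Of 88 alternative values of the 4 genes for DHA in WT mice (6 planned settings, the length offset and each mouse left out, per gene), 87 kept direction and side of the threshold. Leaving out a Tg2576 mouse could hardly move these differences, since each group has its own coefficient. None of the 4 genes was called to begin with, so keeping that side says little. Fn1 reversed to 0.00146 without WT vehicle mouse 2. Leaving out 1 mouse gave -0.384 to -0.149 for Etv1, -0.542 to -0.0225 for Tshz2, -0.251 to 0.00146 for Fn1 and -0.335 to -0.0604 for Nts. Among correlations, Etv1 with Tshz2 reversed to -0.196, Tshz2 with Fn1 to -0.192 and Tshz2 with Nts to 0.0994 without the 2 farthest mice.

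Counts of called genes moved more, and the cause was not tested. For DHA in Tg2576 mice (69 genes) DESeq2 gave 126, no filter 126, the length offset 104 and only the 2 groups compared 29, and leaving out 1 mouse gave 53 (Tg2576 DHA mouse 3) to 312 (Tg2576 DHA mouse 1). For DHA in WT mice (270) only the 2 groups compared gave 431, and leaving out 1 mouse 156 to 331. The interaction (162) had 247 with DESeq2, 289 with no filter and 87 to 527 with 1 mouse left out. Genotype under vehicle (604) gave 312 to 965 and under DHA (342) 190 to 460 with 1 mouse left out. For the 10 other subicular genes, the interaction count went from 0 to between 0 and 1, the 1 without Tg2576 vehicle mouse 3.

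The replicate block gave -0.26 for Etv1, -0.256 for Tshz2, -0.107 for Fn1 and -0.194 for Nts in WT mice, and changed no call of these genes. Called genes with the replicate block numbered 311 for DHA in WT mice and 54 in Tg2576 mice. Replicate numbers are not stated to pair the mice. Same-numbered mice of different groups had a median correlation of deviations of 0.0117 over 21 pairs, 4 of them over 0.1. Over 63 other pairs it was 0.00305, with 12 over 0.1. With so few mice in each group, these values cannot decide whether the mice were paired. Depth limits Nts most, with 62 to 196 reads a mouse.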
